A study of Mus musculus with 8 samples.

Results

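The genes described here encode the machinery that copies nuclear DNA, from the marking of replication origins to the supply of deoxynucleotides. They were chosen by name for these functions, by a rule that used no measured value but with earlier results of these data known. They make up 41 of the 24460 genes counted in the series. All 41 passed the filter on low counts and were among the 14296 genes tested. They fall into 8 genes for origin recognition and helicase loading, 6 for the MCM2-7 helicase, 6 for helicase activation, 9 for polymerase and primase subunits, 9 for the sliding clamp, its loader and the single-strand binding protein RPA, and 3 for nucleotide supply.

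RNA-Seq was performed on wild type mouse embryonic fibroblast (MEF) cells that were exposed, while subconfluent, to 0 µM (n = 3 libraries), 2 µM (n = 3) or 10 µM (n = 2) RHPS4, a ligand of the G-quadruplex (G4) structures that guanine-rich DNA or RNA can form. All groups were grown in the same high-glucose DMEM with serum, and the labels give no genetic change in any group. The labels name exposures of 16 or 24 h for the study without saying which was used for these libraries, and do not say whether replicates came from separate cultures, so that p values here measure only the spread between these libraries. Values are library-scaled counts (CPM) with edgeR's TMM factors, and the question put to each member was whether its mRNA level differed between doses.

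Replication origins are bound by the origin recognition complex (ORC), on which CDC6 and CDT1 load the MCM2-7 ring in G1 phase. At the start of S phase, CDC45 and the GINS complex join the ring to form the active helicase, polymerase α with primase starts each strand, and polymerases δ and ε extend it with the clamp PCNA, which replication factor C loads. Many of these genes are transcribed in a wave at the G1/S boundary under E2F transcription factors, so that in proliferating fibroblasts their mRNAs follow the share of cells entering S phase. In bulk samples such as these, fewer cells in S phase and less mRNA per cell cannot be told apart.

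RefSeq promoter windows (GRCm38.p6, 250 bases before to 50 bases after each start) were found for 34 of the 41 members. The 4 E2F-type motifs TTTCCCGC, TTTGGCGC, TTTCGCGC and TTTGCCGC were searched on both strands, and 14 of the 34 members (41.2%) held a match against 704 of 27025 genes with a window (2.6%). The stretches below come from members whose match lay wholly before the start, and were chosen to set genes that fell at 10 µM beside Orc3, which did not pass the test. They read 5′ to 3′ on the gene's strand, and the capitals mark the E2F-type matches, overlapping ones included.
Cdc6, chr11:98908009-98908088, + strand: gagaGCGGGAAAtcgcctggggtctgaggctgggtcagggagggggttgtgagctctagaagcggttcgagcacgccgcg
Mcm5, chr8:75109352-75109431, + strand: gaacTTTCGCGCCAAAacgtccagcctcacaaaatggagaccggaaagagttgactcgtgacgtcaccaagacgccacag
Mcm6, chr1:128359740-128359819, - strand: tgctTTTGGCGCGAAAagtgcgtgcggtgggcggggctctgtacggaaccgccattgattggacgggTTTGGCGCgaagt
Pola1, chrX:93632218-93632297, - strand: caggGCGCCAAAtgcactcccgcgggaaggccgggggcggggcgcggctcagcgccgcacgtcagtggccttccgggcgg
Orc1, chr4:108579416-108579445, + strand: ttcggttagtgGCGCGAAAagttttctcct
Gins3, chr8:95633507-95633536, + strand: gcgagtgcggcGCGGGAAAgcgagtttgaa
Orc3, chr4:34614965-34614994, - strand: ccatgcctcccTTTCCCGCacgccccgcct

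In the GENCODE annotation of GRCm38, the Mcm5, Mcm6 and Pola1 stretches lie outside any gene and the Cdc6 stretch lies in an intron of Cdc6. The Gins3 stretch and 23 bases of the Orc1 stretch lie in exons of the gene itself, and the Orc3 stretch lies in an exon of its neighbour Rars2. The other members with a match were Cdt1, Mcm3, Mcm7, Pold1, Pold3, Pole2 and Rfc3. Pcna, Rfc5, Rrm2, Tyms and Rpa2 had no match to these letters in their windows.

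A pattern of 4 runs of at least 3 G with loops of 1 to 7 bases, the usual sequence rule for a possible G4, was searched on both strands because RHPS4 binds G4 structures. It was present in the windows of 9 of the 34 members (26.5%) and of 20.4% of all genes with a window. Of the genes counted in the series that have a window, 24.3% held it, a share near that of the members. The members were Orc4, Orc6, Cdt1, Mcm2, Mcm6, Pold1, Pold2, Rpa1 and Rrm1. The matches of 3 of them that lie outside annotated genes are shown with 10 bases on each side, on the gene's strand and with the match in capitals.
Mcm2, chr6:88898809-88898848, - strand: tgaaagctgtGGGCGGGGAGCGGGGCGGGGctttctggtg
Mcm6, chr1:128359883-128359927, - strand: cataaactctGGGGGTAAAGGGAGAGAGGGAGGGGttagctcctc
Rrm1, chr7:102441475-102441515, + strand: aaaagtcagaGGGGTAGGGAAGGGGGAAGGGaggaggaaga

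Each library held between 10455965 and 26688121 counts in total, and a member had between 159 and 9570 counts in a library. The features of mtDNA took 13.2 to 14.4% of the counts at 0 µM, 7.4 to 8.26% at 2 µM and 5.33 to 6.32% at 10 µM, so the choice of scaling matters to the nuclear genes. Replicate 1 at 0 µM, the smallest library, stood apart from replicates 2 and 3, with chi-square values per degree of freedom of 15.4 and 20.2 against 3.23 between those replicates. Among the 2 µM libraries these values were 3.91, 10.6 and 5.71, and between the 10 µM libraries 8.63. The members were on the whole higher in replicate 1 at 0 µM, with 36 of 41 above the mean of the 0 µM group against 4 and 8 in replicates 2 and 3. The 8 fibroblast markers summed to 12600 to 13100 CPM at 0 µM, 11300 to 11700 at 2 µM and 11000 to 11600 at 10 µM, while 4 markers each of macrophages, endothelium, epithelium and muscle summed to between 0.89 and 5.46 CPM per list in any library, with none at 0 in every library.

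As a group, the members' mRNAs were highest at 2 µM and lowest at 10 µM. Their summed level was 4351 to 4882 CPM at 0 µM, 5063 to 5215 CPM at 2 µM and 3807 and 4002 CPM at 10 µM, and the 3 groups did not overlap. The median member lay 0.15 to 0.19 (log2) above its 0 µM mean in the 2 µM libraries, and 0.20 and 0.14 below it in the 10 µM libraries. As a share of the counts on nuclear genes, the members took 0.474 to 0.527% at 0 µM, 0.545 to 0.567% at 2 µM and 0.443 and 0.466% at 10 µM. As a share of all counts, mtDNA included, they took 0.411 to 0.451% at 0 µM and 0.415 and 0.441% at 10 µM, which overlap, whereas the 2 µM libraries stayed above both at 0.5 to 0.52%.

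**Figure D1:**
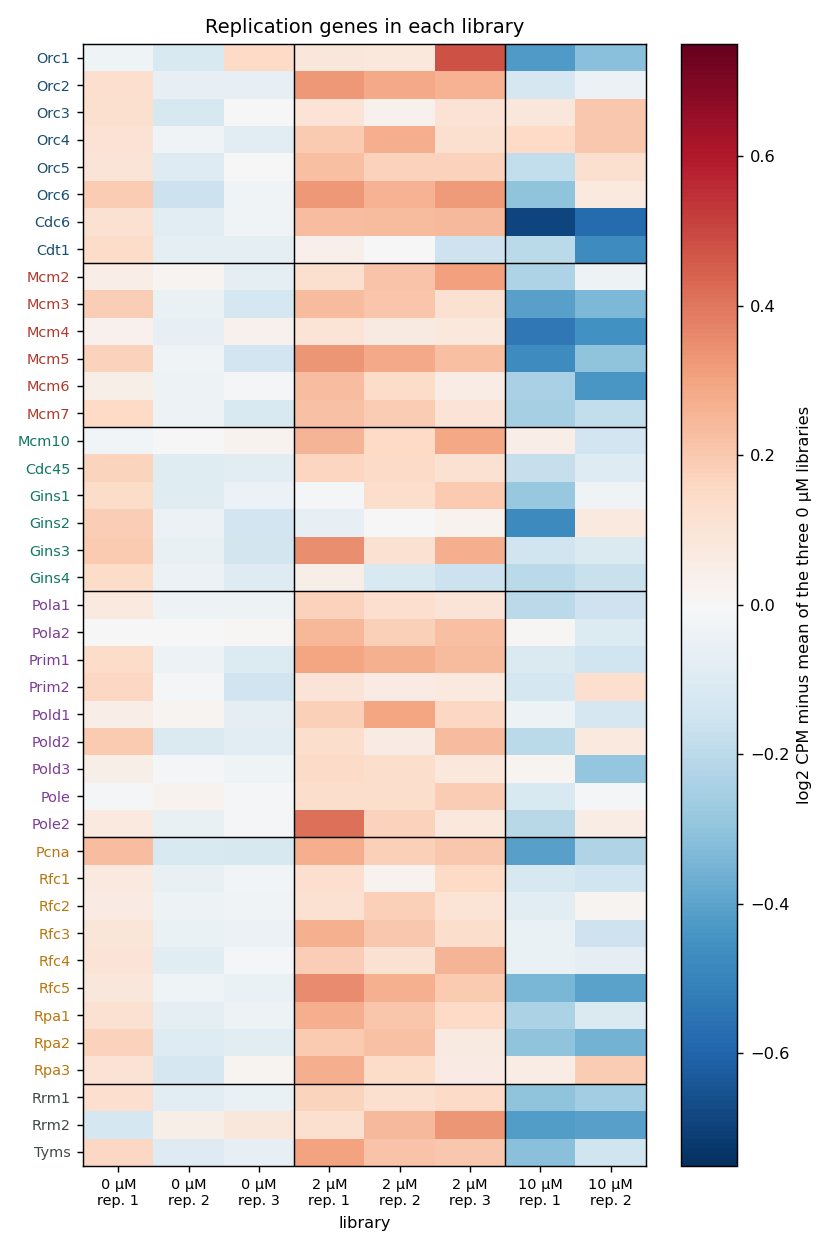
Each row is 1 of the 41 replication genes and each column 1 of the 8 libraries; the colour gives log2 CPM minus the mean of the 0 µM libraries, and horizontal lines and label colours separate the 6 roles, from origin recognition at the top to nucleotide supply at the bottom. The 2 µM columns are nearly all above the 0 µM mean (39 to 40 of 41 members), and the 10 µM columns are mostly below it (35 and 31 of 41), most of all for Cdc6.

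At 2 µM, 38 of the 41 members had estimates above those at 0 µM, with a median log2 fold change of 0.19 against -0.01 over all tested genes. Nearly all of these members did not pass the test after adjustment. None was a differentially expressed gene (DEG), which needs more than a 1.5-fold change with an adjusted p under 0.01 in edgeR's quasi-likelihood test, where 0.119% of all tested genes were DEGs that rose. DESeq2 also called 0. At an adjusted p under 0.05 with no limit on fold, Orc2 alone rose (1.51% of all tested genes rose by this rule). At an unadjusted p under 0.05, 18 members were higher and 0 lower, against 10.1% of all genes higher and 11.2% lower. All 2 µM libraries lay above all 0 µM libraries for 24 members, and below them for 0, where 12.7% of all tested genes lay above and 12.9% below.

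This count depended on replicate 1 at 0 µM. Without it, 19 of the 41 members rose at an adjusted p under 0.05, with 7.63% of all genes rising, and the median was 0.24. Leaving out any other library left 0 members with an adjusted p under 0.05. With scaling to total counts only, which lets the fall in mtDNA counts raise nuclear genes, 17 members rose, where 7.43% of all genes rose. The share of higher calls among all genes' calls went from 36.3 to 77.9%.

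Between 10 and 0 µM, 8 members fell at an adjusted p under 0.05 (edgeR) and 0 rose, where 7.11% of all tested genes fell. They were Cdc6, Mcm3, Mcm4, Mcm5, Mcm6, Rfc5, Rrm1 and Rrm2, which act in helicase loading, as the helicase, in clamp loading and in deoxynucleotide synthesis. Cdc6 was the only DEG among the members, where 1.14% of all genes were DEGs that fell. The median of the members was -0.13 against 0.02 over all tested genes, and 37 of 41 estimates were negative. Both 10 µM libraries lay below all 0 µM libraries for 21 members (20% of all genes), and above them for Orc4 only (22.9% of all genes). With total counts only, the median of the members became 0.08 and that of all genes 0.23, so the sign turned. The members stayed 0.15 below all genes, which a change of scaling cannot alter, since it shifts all genes nearly alike. With total counts only, Cdc6 and Mcm4 fell, where 2.32% of all genes fell, and Orc3, Orc4 and Rpa3 rose, where 26.2% rose. The share of higher calls among all genes' calls went from 48.9 to 91.9%. The number of falling members was 5 without replicate 3 at 0 µM, where 3.74% of all genes fell, and 5 without replicate 2 at 2 µM (4.94%). It was 9 without replicate 1 at 0 µM (11.7%). Fewer fell without replicate 2 at 10 µM, where the members' median was -0.23 against -0.02 over all genes. Cdc6 was no DEG without replicate 1 at 10 µM (log2 fold change -0.60).

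The widest separation was between 10 and 2 µM. At an adjusted p under 0.05 (edgeR), 25 of the 41 members fell and 0 rose, where 11.9% of all tested genes fell, and the median was -0.30 against 0.03 over all genes. Cdc6, Mcm5, Rfc5 and Rrm2 were DEGs, where 1.59% of all genes were DEGs that fell. Both 10 µM libraries lay below all 2 µM libraries for 35 members, against 24.9% of all genes. With total counts only, 16 members fell, with 5.46% of all genes falling, and Cdc6 was the only DEG. Leaving out single libraries gave 18 to 30 falling members. The most fell without replicate 1 at 0 µM, where 7 were DEGs and 17.2% of all genes fell. The fewest fell without replicate 1 or 2 at 2 µM, where 8.06 and 6.82% of all genes fell. The 25 included 15 that kept an adjusted p under 0.05 under all 17 alternatives tried, namely Orc2, Cdc6, Mcm3, Mcm4, Mcm5, Mcm6, Mcm7, Prim1, Pcna, Rfc5, Rpa1, Rpa2, Rrm1, Rrm2 and Tyms. This comparison shares the 2 µM libraries with the first and the 10 µM libraries with the second, so the 3 are not independent.

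**Figure D2:**
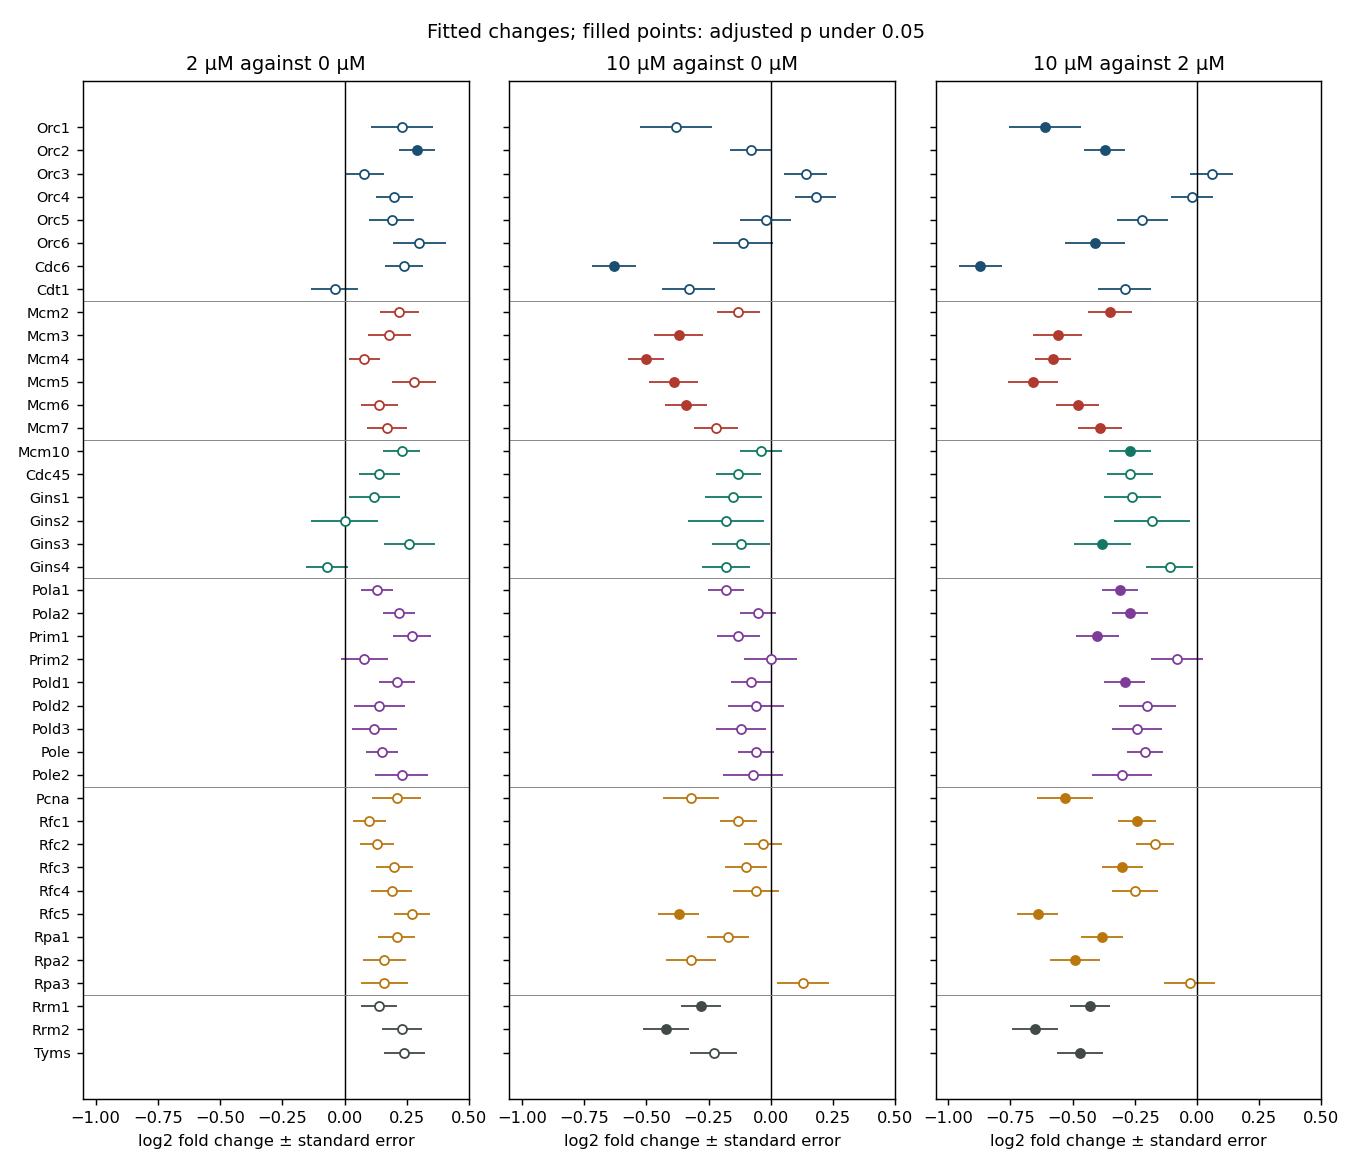
Points give the log2 fold change of each of the 41 members in the 3 comparisons and lines its standard error (edgeR, n = 3, 3 and 2 libraries); filled points have an adjusted p under 0.05 and colours mark the roles. In the left panel 38 points are above 0 and only that of Orc2 is filled, in the middle panel 8 are filled, and in the right panel 40 points are below 0 and 25 are filled.

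Among the origin recognition and loading genes, 4 of 8 fell between 2 and 10 µM (Orc1, Orc2, Orc6 and Cdc6). Beside this and the counts of the role groups below, 11.9% of all tested genes fell between 2 and 10 µM and 7.11% from 0 to 10 µM. Cdc6 (chr11:98907801-98923940, + strand), the ATPase that brings MCM2-7 to ORC, was measured at 51.2, 44.6 and 46.5 CPM at 0 µM, 55.6, 55.7 and 56.1 CPM at 2 µM, and 29.4 and 31.8 CPM at 10 µM. No library of one dose overlapped those of another. Its level fell 0.647-fold from 0 to 10 µM (log2 fold change -0.63 ± 0.09, SE, adjusted p = 0.000991, edgeR) and 0.548-fold from 2 to 10 µM (-0.87 ± 0.09, adjusted p = 8.28e-05).

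Cdt1, the partner of CDC6 in loading, did not share this shape. It was at 82.4, 71.5 and 71.6 CPM at 0 µM, 77.1, 75.02 and 67.3 CPM at 2 µM, and 65.2 and 54.0 CPM at 10 µM. Its 10 µM libraries were the lowest of all, with an adjusted p of 0.0684 against 2 µM (edgeR). The log2 ratio of Cdc6 to Cdt1 within a library went from -0.66 ± 0.04 (SD, n = 3) at 0 µM to -0.39 ± 0.11 (n = 3) at 2 µM and -0.95 ± 0.27 (n = 2) at 10 µM. In an exact two-sided permutation test each of these differences had p = 0.1, the smallest p that 3 against 3 or 3 against 2 libraries allow, and this pair of genes, as all those set against each other here, was chosen after its values were seen.

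The ORC subunits differed among themselves. Orc1, the subunit whose protein is made and destroyed with the cell cycle, had 15.6 to 18.7 CPM at 0 µM, 17.8 to 23.5 CPM at 2 µM, and 12.6 and 13.6 CPM at 10 µM, and fell from 2 to 10 µM (log2 fold change -0.61 ± 0.14, adjusted p = 0.0119, edgeR), a call lost without replicate 1 at 10 µM. Orc2 had 73.3 to 83.5 CPM at 0 µM, 91.8 to 96.1 CPM at 2 µM and 70.2 and 74.5 CPM at 10 µM. It was the only member called at 2 µM against 0 µM (0.29 ± 0.07, adjusted p = 0.0493, edgeR), and 25.13% of its 75-base stretches are shared with Nif3l1 on the other strand.

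Orc3 and Orc4 passed the test in no comparison, with 72.8 to 85.9, 81.0 to 85.4 and 83.9 to 91.2 CPM at 0, 2 and 10 µM for Orc3 and 56.1 to 64.0, 64.7 to 71.7 and 65.9 to 68.3 CPM for Orc4. Their log2 fold changes between 2 and 10 µM were 0.06 ± 0.09 and -0.02 ± 0.08. All 2 and 10 µM libraries of Orc4 lay above its 0 µM libraries (0.20 ± 0.08 at 2 µM, adjusted p = 0.158, and 0.18 ± 0.08 at 10 µM, adjusted p = 0.182, edgeR). The log2 ratio of Orc1 to Orc4 was 0.56 lower at 10 than at 2 µM (exact permutation p = 0.1, the smallest possible). Orc5 and Orc6 lay between these extremes, at -0.22 ± 0.10 and -0.41 ± 0.12, and only Orc6 passed (adjusted p = 0.0322, edgeR), a call lost without any of the 2 µM libraries or replicate 1 at 10 µM.

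All 6 subunits of the MCM2-7 helicase, the ring that unwinds DNA at the fork, fell between 2 and 10 µM, by -0.35 to -0.66 on the log2 scale with a median of -0.52, and only the call of Mcm2 was lost when a library was left out (replicate 2 at 2 µM or replicate 1 at 10 µM). From 0 to 10 µM, Mcm3, Mcm4, Mcm5 and Mcm6 fell, and Mcm2 (-0.13 ± 0.09) and Mcm7 (-0.22 ± 0.09) did not pass the test. At 2 µM against 0 µM all 6 estimates were positive, 0.08 to 0.28, and none passed.

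Mcm4 (chr16:15623897-15637400, - strand) was at 209.6, 196.0 and 209.1 CPM at 0 µM, 219.7, 214.6 and 216.5 CPM at 2 µM, and 141.4 and 149.2 CPM at 10 µM. It changed least of the 6 at 2 µM (0.08 ± 0.06) and fell by 0.50 ± 0.07 from 0 to 10 µM (adjusted p = 0.00135, edgeR). That call passed under every alternative tried, total counts included.

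Mcm5 (chr8:75109569-75128439, + strand) had 306.8, 267.2 and 247.0 CPM at 0 µM, 343.0, 331.4 and 318.2 CPM at 2 µM, and 196.5 and 221.2 CPM at 10 µM, with no overlap between doses. It fell 0.764-fold from 0 to 10 µM (adjusted p = 0.0248) and 0.631-fold from 2 to 10 µM (adjusted p = 0.00108, edgeR). Without replicate 1 at 10 µM it was no DEG, at an adjusted p of 0.0101, and its call against 0 µM was lost.

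Mcm3 (chr1:20802968-20820312, - strand) was at 201.2, 170.8 and 161.4 CPM at 0 µM, 208.9, 204.3 and 191.8 CPM at 2 µM, and 133.5 and 140.4 CPM at 10 µM. Its 0 µM and 2 µM libraries overlapped through replicate 1 at 0 µM, and both 10 µM libraries were below all others (-0.37 ± 0.10 against 0 µM, adjusted p = 0.0266, and -0.56 ± 0.10 against 2 µM, adjusted p = 0.00244, edgeR). Mcm6 (chr1:128331590-128359664, - strand) had 212.6, 201.3 and 205.5 CPM at 0 µM, 242.5, 227.4 and 214.5 CPM at 2 µM, and 174.3 and 152.5 CPM at 10 µM. Its doses did not overlap, and it fell by 0.34 ± 0.09 from 0 to 10 µM (adjusted p = 0.0237, edgeR). The calls of Mcm3 and Mcm6 against 0 µM were lost without replicate 2 at 10 µM or replicate 2 at 2 µM, that of Mcm3 also without replicate 1 at 10 µM and that of Mcm6 without replicate 3 at 0 µM.

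The 6 subunits enter the ring in equal number, but their mRNAs were not at equal levels per kb of annotated exon. At 0 µM the level was 68.5 ± 7.6 CPM per kb (SD, n = 3) for Mcm5, 60.6 ± 5.8 for Mcm7, 57.1 ± 2.2 for Mcm4, 47.4 ± 5.5 for Mcm3, 44.2 ± 1.2 for Mcm6 and 28.0 ± 1.2 for Mcm2. Neighbours in this order from Mcm5 to Mcm4, and Mcm3 with Mcm6, differed by less than the sum of their SDs, and the length counts every annotated exon, used or not. Of the 75-base stretches of Mcm7, 13.19% are shared with other genes, and its exons overlap those of Ap4m1 on the other strand. The log2 ratio of Mcm4 to Mcm2 within a library was 0.08 ± 0.09 at 0 µM, -0.06 ± 0.11 at 2 µM and -0.29 ± 0.08 at 10 µM (exact permutation p = 0.1 for 10 against 0 µM, the smallest possible, and 0.2 for 10 against 2 µM).

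**Figure D3:**
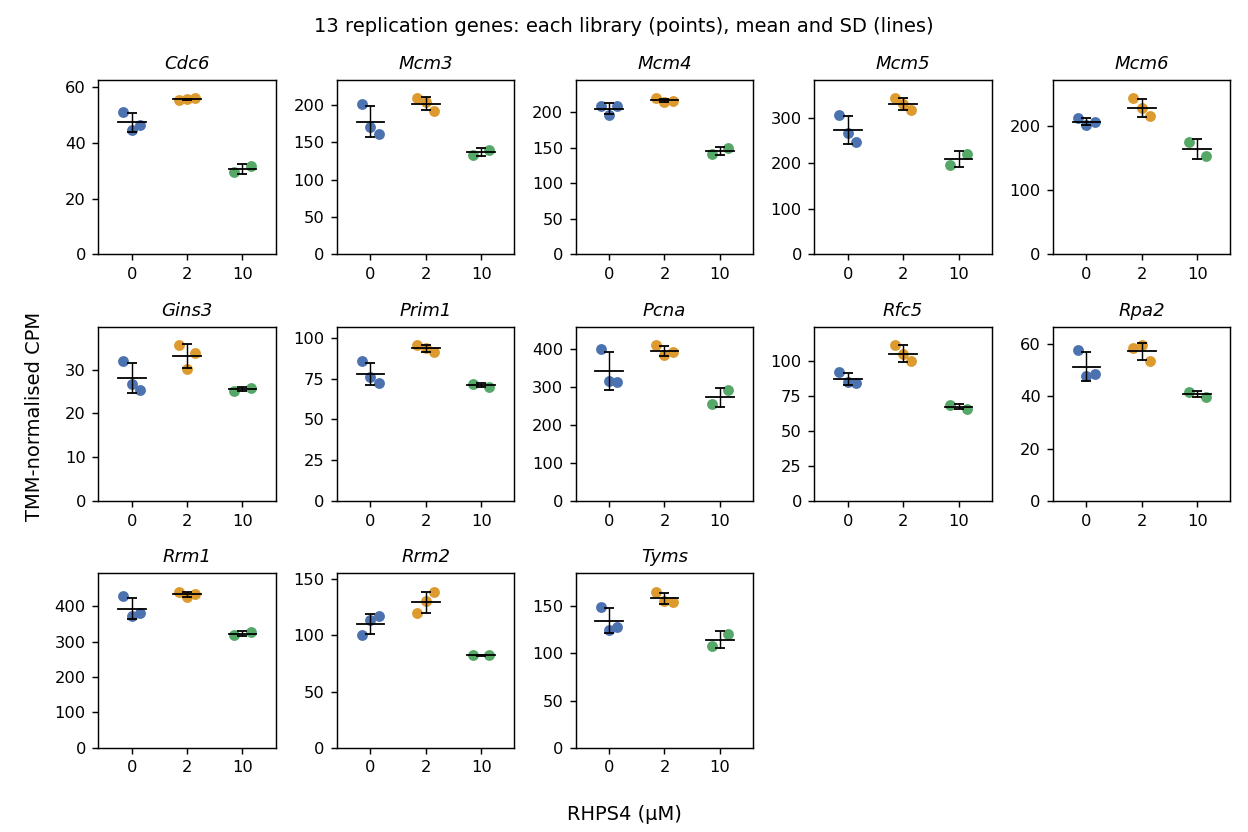
TMM-normalised CPM (vertical axes, from 0) of 13 members at 0, 2 and 10 µM RHPS4 (horizontal axes); each point is 1 library, horizontal lines are means and bars are SD (n = 3, 3 and 2). In 12 of the 13 panels both 10 µM points lie below all points of the other doses. In the panel of Gins3 they overlap the 0 µM points (25.2 and 25.9 against 25.3 to 32.0 CPM). The 13 members were chosen for their small p, which favours panels with such separation. Of all 41 members, 21 had both 10 µM libraries below all others, and the share of all tested genes that did was not counted.

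Among the helicase activation genes, Mcm10 and Gins3 fell between 2 and 10 µM, and 0 of 6 passed from 0 to 10 µM, where the estimates ran from -0.04 to -0.18. Gins3 (chr8:95633453-95645060, + strand), a GINS subunit, was at 32.0, 26.8 and 25.3 CPM at 0 µM, 35.5, 30.2 and 33.8 CPM at 2 µM, and 25.2 and 25.9 CPM at 10 µM. The 10 µM libraries lay below all 2 µM libraries (-0.38 ± 0.12, adjusted p = 0.0354, edgeR) and overlapped the 0 µM libraries. The call was lost without replicate 1 or 3 at 2 µM or either 10 µM library, and that of Mcm10, a factor that helps to activate the helicase, without any of the 2 µM libraries, replicate 3 at 0 µM or replicate 2 at 10 µM.

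The GINS complex holds 1 copy of each subunit, and the other GINS genes had differences between 2 and 10 µM of -0.26 ± 0.12 (Gins1), -0.18 ± 0.15 (Gins2) and -0.11 ± 0.10 (Gins4), none past the test. Gins2 reads are uncertain, since 64.72% of its 75-base stretches are shared with Gse1 on the other strand. Cdc45, which joins MCM2-7 and GINS in the active helicase, had 54.6 to 65.3 CPM at 0 µM, 62.8 to 65.0 CPM at 2 µM, and 51.5 and 54.3 CPM at 10 µM. The last were the lowest of all, with an adjusted p of 0.0512 against 2 µM (edgeR).

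The polymerase and primase genes had small differences. From 0 to 10 µM their log2 fold changes ran from -0.18 to 0 and 0 of 9 passed, and between 2 and 10 µM Pola1, Pola2, Prim1 and Pold1 fell. Prim1 (chr10:128015168-128030037, + strand), the catalytic primase subunit, was at 85.6, 75.7 and 72.2 CPM at 0 µM, 95.5, 93.6 and 91.5 CPM at 2 µM, and 71.9 and 70.0 CPM at 10 µM. The groups did not overlap, though the lowest 0 µM and the highest 10 µM library were nearly equal, and the fall from 2 to 10 µM was 0.759-fold (adjusted p = 0.00718, edgeR).

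Prim2, the other primase subunit, was at 39.5 to 48.7, 45.7 to 46.7 and 39.9 to 47.8 CPM, with overlapping groups and a difference of -0.08 ± 0.11 between 2 and 10 µM. Pola1 and Pola2, the catalytic and regulatory subunits of polymerase α, fell by 0.31 ± 0.07 and 0.27 ± 0.07 (adjusted p = 0.0113 and 0.0224, edgeR). Of polymerase δ, the catalytic Pold1 fell (-0.29 ± 0.08, adjusted p = 0.0252), and the accessory Pold2 and Pold3 had -0.20 ± 0.11 and -0.24 ± 0.10 with no call. Of polymerase ε, Pole had -0.21 ± 0.07 and Pole2 -0.30 ± 0.12, with adjusted p of 0.0514 and 0.0985 (edgeR). The calls of Pola2 and Pold1 were lost without replicate 1 or 2 at 2 µM or replicate 2 at 10 µM.

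Of the clamp, loader and RPA genes, 6 of 9 fell between 2 and 10 µM (Pcna, Rfc1, Rfc3, Rfc5, Rpa1 and Rpa2), and only Rfc5 fell from 0 to 10 µM. Pcna (chr2:132249162-132253314, - strand) encodes the ring that holds polymerases on DNA and had the highest level per kb of the members, 143 ± 20.6 CPM per kb at 0 µM. It was at 400.2, 315.6 and 313.8 CPM at 0 µM, 411.0, 385.3 and 392.6 CPM at 2 µM, and 256.6 and 291.6 CPM at 10 µM. Replicate 1 at 0 µM lay among the 2 µM libraries and both 10 µM libraries were the lowest (-0.53 ± 0.11 against 2 µM, adjusted p = 0.00644, and -0.32 ± 0.11 against 0 µM, adjusted p = 0.0777, edgeR). Of its 75-base stretches, 13.85% are shared with the pseudogene Pcna-ps2.

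Rfc5 (chr5:117378103-117389047, - strand), a small subunit of the clamp loader, was at 92.4, 85.2 and 84.0 CPM at 0 µM, 111.4, 105 and 99.9 CPM at 2 µM, and 68.8 and 66.1 CPM at 10 µM. The doses did not overlap. It fell 0.775-fold from 0 to 10 µM (adjusted p = 0.0128) and 0.64-fold from 2 to 10 µM (adjusted p = 0.000397, edgeR), the former lost without replicate 2 at 10 µM. Its exons overlap those of Wsb2 on the other strand, and 9.83% of its 75-base stretches are shared.

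The other loader subunits changed less, with -0.24 ± 0.08 for Rfc1, -0.17 ± 0.08 for Rfc2, -0.30 ± 0.08 for Rfc3 and -0.25 ± 0.09 for Rfc4 between 2 and 10 µM, of which Rfc1 and Rfc3 passed. The calls of both were lost without replicate 1 or 2 at 2 µM or replicate 2 at 10 µM, and that of Rfc1 also without replicate 3 at 0 or 2 µM or replicate 1 at 10 µM. The log2 ratio of Rfc5 to Rfc2 was 0.10 ± 0.02 at 0 µM, 0.24 ± 0.09 at 2 µM and -0.24 ± 0.12 at 10 µM, with p = 0.1 for each difference, the smallest p of the exact permutation test. Of the 75-base stretches of Rfc2, 13.91% are shared with other genes, and its exons overlap those of Lat2 on the other strand.

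RPA is a complex of 3 subunits, and 2 of its genes fell. Rpa2 (chr4:132768332-132778752, + strand), the subunit phosphorylated under replication stress, was at 57.6, 47.7 and 48.3 CPM at 0 µM, 58.3, 59.4 and 53.5 CPM at 2 µM, and 41.4 and 39.9 CPM at 10 µM. Its 0 and 2 µM libraries overlapped and those at 10 µM lay below both (0.713-fold against 2 µM, adjusted p = 0.00558, edgeR). Rpa1 fell by 0.38 ± 0.08 from 2 to 10 µM (adjusted p = 0.00843), whereas Rpa3 had 24.0 to 28.3, 27.4 to 31.7 and 27.2 to 30.01 CPM at the 3 doses (-0.03 ± 0.10). The log2 ratio of Rpa2 to Rpa3 was 0.96 ± 0.09 at 0 µM, 0.96 ± 0.08 at 2 µM and 0.51 ± 0.14 at 10 µM, which was 0.45 lower at 10 µM than at either other dose (exact permutation p = 0.1, the smallest possible).

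All 3 genes of nucleotide supply fell between 2 and 10 µM. Rrm2 (chr12:24708241-24714146, + strand), the small ribonucleotide reductase subunit made in S phase, was at 100.5, 113.4 and 116.9 CPM at 0 µM, 119.5, 130.3 and 138.6 CPM at 2 µM, and 82.2 and 82.9 CPM at 10 µM. Replicate 1 at 0 µM was its lowest 0 µM library, whereas it was the highest for the other 12 members with a coordinate and a value for each library here. It fell 0.747-fold from 0 to 10 µM (adjusted p = 0.012) and 0.637-fold from 2 to 10 µM (adjusted p = 0.000721, edgeR), the former lost without replicate 3 at 0 µM or replicate 2 at 10 µM.

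Rrm1 (chr7:102441695-102469771, + strand), the large subunit, was at 427.3, 371.4 and 379.2 CPM at 0 µM, 439.7, 426.6 and 432.8 CPM at 2 µM, and 317.7 and 327.2 CPM at 10 µM. Both 10 µM libraries were the lowest. The fall from 0 to 10 µM was small (0.822-fold, adjusted p = 0.039, edgeR) and was lost without replicate 3 at 0 µM, replicate 1 or 2 at 2 µM, or either 10 µM library, while that from 2 to 10 µM (0.745-fold, adjusted p = 0.00399) was not lost in any. The log2 ratio of Rrm2 to Rrm1 within a library was -1.83 ± 0.22 at 0 µM, -1.74 ± 0.12 at 2 µM and -1.97 ± 0.02 at 10 µM. Its exact permutation p was 0.6 for 2 against 0 µM, 0.4 for 10 against 0 µM and 0.2 for 10 against 2 µM. Tyms (chr5:30058202-30073617, - strand), thymidylate synthase, was at 149.4, 125.2 and 128.3 CPM at 0 µM, 164.9, 155.4 and 154.0 CPM at 2 µM, and 107.9 and 120.7 CPM at 10 µM. The doses did not overlap, and it fell 0.723-fold from 2 to 10 µM (adjusted p = 0.00516, edgeR) and was at 0.852-fold against 0 µM (adjusted p = 0.127).

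Lists of related genes gave the members a context. Of 36 other replication fork genes, 23 fell and 2 rose between 2 and 10 µM (adjusted p under 0.05, edgeR) with a median of -0.38. Of 24 G1/S regulators, 14 fell and 2 rose, with a median of -0.40. Of 15 mitotic genes, 7 fell and 0 rose, with a median of -0.25. Of all tested genes, 11.9% fell and 11.5% rose in this comparison. From 0 to 10 µM the numbers that fell in these lists were 13, 12 and 2, with medians of -0.17, -0.34 and -0.18. Here 1 fork gene rose, and 7.11% of all tested genes fell and 6.81% rose. At 2 µM against 0 µM, 1 fork gene (Atad5) and 4 G1/S regulators (Skp2, Ccne1, Ccne2 and Cdc25a) rose and 0 mitotic genes passed. The medians were 0.19, 0.08 and 0.06, and 1.51% of all tested genes rose and 2.65% fell. The G1/S regulator that fell was Cdkn1a, which encodes the cyclin-dependent kinase inhibitor p21, at 3.97 ± 1.40 CPM (SD, n = 3) at 0 µM, 1.49 ± 0.81 CPM (n = 3) at 2 µM and 3.24 ± 0.42 CPM (n = 2) at 10 µM (log2 fold change -1.41 ± 0.33 at 2 µM, adjusted p = 0.0398, edgeR).

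In these lists the DEGs with the smallest p were Uhrf1, Fen1 and Clspn at the fork and Ccnd1, Ccne1 and Ccne2 at G1/S. Fen1, the nuclease that trims Okazaki fragments, was at 95.4 ± 9.6 (SD, n = 3), 113 ± 6.8 (n = 3) and 67.2 ± 3.2 CPM (n = 2) at 0, 2 and 10 µM. Uhrf1, which guides DNA methylation to new strands, was at 275 ± 25.5, 317 ± 9.5 and 193 ± 15.4 CPM, and Clspn, a fork protein of the checkpoint, at 83.5 ± 4.0, 95.2 ± 6.9 and 54.2 ± 8.7 CPM. All 3 fell from 2 to 10 µM, by 0.71 to 0.81 on the log2 scale.

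The G1/S genes named by the same rule were cyclins. Ccne2, which encodes cyclin E2, was at 66.6 ± 9.5, 93.3 ± 5.7 and 45.3 ± 3.4 CPM at 0, 2 and 10 µM. It rose by 0.49 ± 0.10 at 2 µM (adjusted p = 0.0246) and fell by 1.04 ± 0.12 from 2 to 10 µM (adjusted p = 0.000165, edgeR). Ccne1 fell by 0.89 ± 0.09 from 2 to 10 µM, and Ccnd1, which encodes cyclin D1, was at 419 ± 4.0, 452 ± 15.3 and 270 ± 3.4 CPM and fell by 0.74 ± 0.07 from 2 to 10 µM (adjusted p = 5.78e-05, edgeR).

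The 2 fork genes that rose from 2 to 10 µM, Rrm2b and Pold4, are named after their values were seen. Rrm2b, the ribonucleotide reductase subunit known for its induction by p53 and used outside S phase, was at 18.1 ± 0.2 CPM at 0 µM, 18.2 ± 1.4 CPM at 2 µM and 29.5 ± 2.3 CPM at 10 µM. It rose by 0.70 ± 0.10 on the log2 scale from 0 to 10 µM (adjusted p = 0.000926, edgeR), where Rrm2, its counterpart in S phase, had fallen by 0.42 ± 0.09. Pold4, an accessory subunit of polymerase δ, was at 5.17 ± 0.59, 3.96 ± 0.29 and 6.59 ± 1.04 CPM at the 3 doses and rose by 0.72 ± 0.17 from 2 to 10 µM (adjusted p = 0.0114, edgeR).

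**Figure D4:**
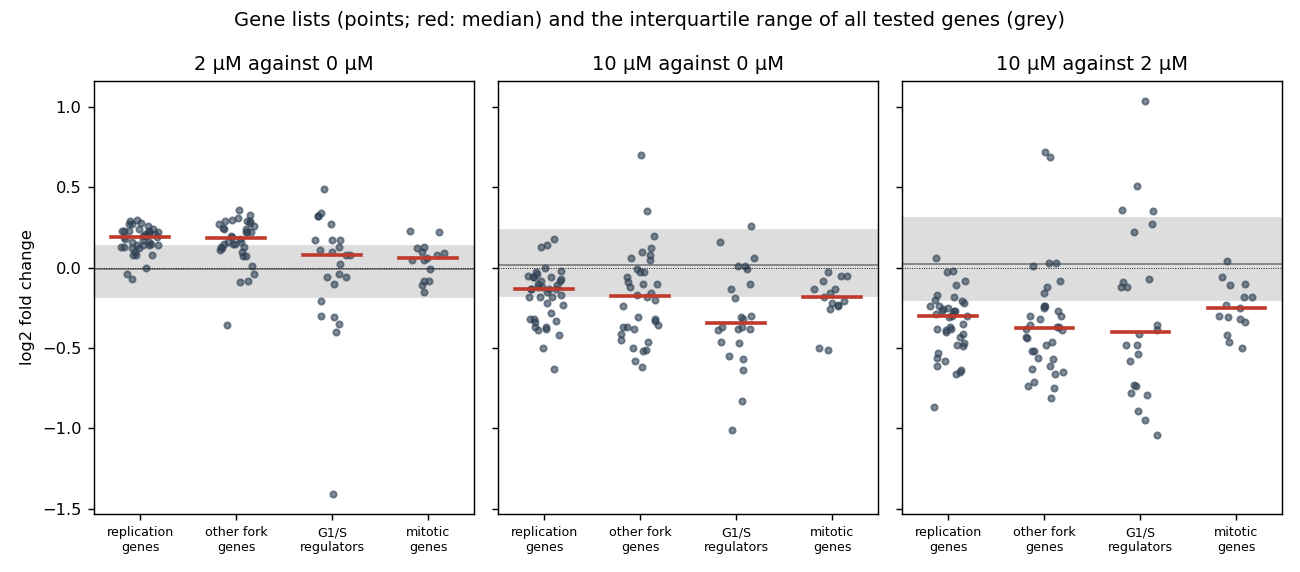
Log2 fold changes (vertical axis) of the 41 members and of 36 other fork genes, 24 G1/S regulators and 15 mitotic genes in the 3 comparisons; each point is a gene, red lines are medians, and the grey line and band are the median and the interquartile range of all 14296 tested genes. The members' median is above the band at 2 µM against 0 µM (0.19) and below it at 10 µM against 2 µM (-0.30).

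Members with and without these promoter letters had like medians. Between 2 and 10 µM the median log2 fold change was -0.34 for the 14 members with an E2F-type match, from -0.87 (Cdc6) to 0.06 (Orc3), and -0.36 for the 20 members with a window and no match, from -0.65 (Rrm2) to -0.02 (Orc4). From 0 to 10 µM the medians were -0.20 and -0.13, and from 0 to 2 µM 0.19 and 0.21. Of the 14 and 20 members, 10 and 14 fell between 2 and 10 µM. For the 9 members with a G4 pattern and the 25 without, the medians between 2 and 10 µM were -0.35 and -0.37. Orc4 (-0.02) and Mcm6 (-0.48), at the ends of the range of members with the pattern, both held it before the start.

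The sets of genes did differ in which letters they held. E2F-type matches were found for 41.2% of the members, 31% of the other fork genes, 33.3% of the G1/S regulators and 7.14% of the mitotic genes with a window. The CHR letters TTTGAA, known from promoters of G2 and mitotic genes, were found for 11.8% of the members and 78.6% of the mitotic genes, against 20.2% of all genes. CCAAT, the box bound by NF-Y, was found for 67.6% of the members, 100% of the mitotic genes and 41.1% of all genes. A match is a description of letters and not a bound site.

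**Figure D5:**
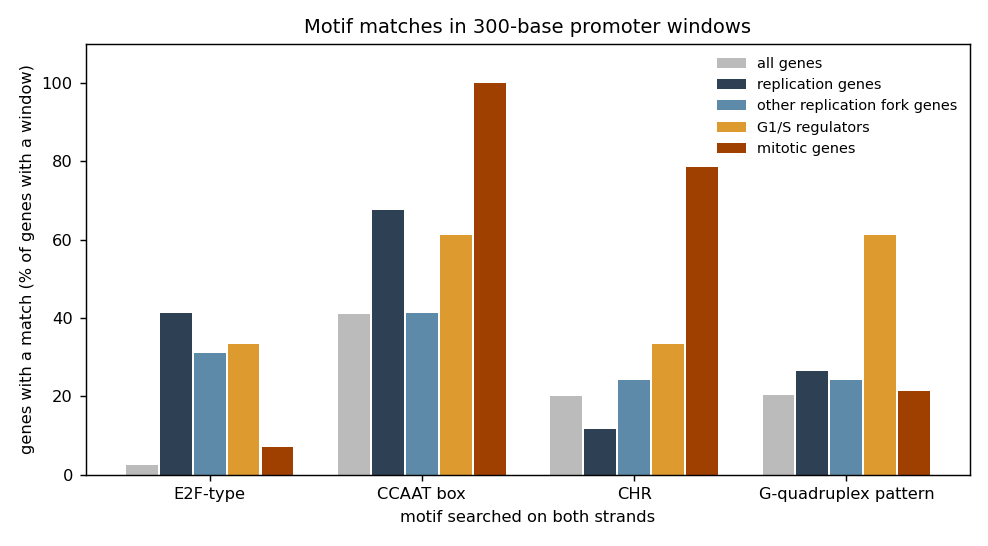
Bars give the percent of genes with a promoter window that hold each motif on either strand, for all 27025 genes with a window, the 34 members with one, and the other fork, G1/S and mitotic genes. The E2F-type bar is 41.2% for the members and 2.6% for all genes, and the CHR bar is highest for the mitotic genes at 78.6%.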

How the data were processed

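Total RNA depleted of nuclear ribosomal RNA was sequenced by the authors as stranded libraries. Per the labels, reads were trimmed with Trim Galore and cutadapt, aligned to mm10 with STAR 2.5.2a and counted per gene with featureCounts. The deposited values are raw counts for 24460 genes, of which 39 are mtDNA features. The annotation and strand setting of the counting are not given in the sources used here.

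The analysis used edgeR 4.0.16 under R 4.3.3 (filterByExpr, TMM, glmQLFit and glmQLFTest, Benjamini-Hochberg adjustment over 14296 genes), with all 8 libraries in 1 model and dose as its only factor. DEGs changed more than 1.5-fold with an adjusted p under 0.01, and an adjusted p under 0.05 was a second rule. To get the standard error, a log2 fold change was divided by the square root of F. CPM are TMM-scaled. For ratios between genes of 1 library, 0.5 was added to the counts. The spread between libraries exceeded counting error (chi-square per degree of freedom of 3.23 for the closest replicates), so each library counted once and no counting interval is given.

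The members and lists were chosen with earlier results of these data known. Values in every library are given for the 12 members with the smallest p over the comparisons and for the member with the smallest p in each role (13 in all), and Cdt1 was added after its values were seen. At most 3 DEGs of each related list, smallest p first, were named, and Atad5, Skp2, Cdc25a, Cdkn1a, Rrm2b and Pold4 were added after their values were seen. Positions, exon lengths and stretches of 75 bases shared with other genes came from GENCODE M21 on GRCm38, the assembly named mm10, by symbol (23376 of 24460 genes matched). Promoter windows came from RefSeq and were scanned with Python 3.11.15. Mcm4, Gins1, Gins2, Gins4, Prim2, Pole and Rfc2 had no window.

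As alternatives, the counts were scaled by RLE, by TMM factors of nuclear genes or by total counts only, filtered at 10 counts in every library or not at all, tested with DESeq2 1.42.0, fitted with only the 2 groups compared or with a block for the replicate number, and fitted without each library in turn. A correction for the GC content of transcripts was added after the data were seen.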

Additional observations from a re-analysis of the deposited data

How the results depend on the processing

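Of the 34 calls of single members at an adjusted p under 0.05, 17 kept it under all 17 alternatives and none changed direction. Scaling to total counts only moved most results. At 2 µM against 0 µM it gave 17 members with an adjusted p under 0.05 in place of 1, where 7.43% of all genes rose in place of 1.51%. The members' median log2 fold change was 0.27 in place of 0.19. At 10 µM against 0 µM total counts gave 0 DEGs in place of 1 and 5 members with an adjusted p under 0.05 in place of 8. Of these 5, 2 fell and 3 rose, where 2.32% of all genes fell and 26.2% rose. The members' median of 0.08 in place of -0.13 reversed the direction. At 10 µM against 2 µM total counts gave 1 DEG in place of 4, 16 members in place of 25 and a median of -0.17 in place of -0.30. Of all genes, 5.46% fell here in place of 11.9%. By construction total-count scaling shifts all nuclear genes when mtDNA counts fall, but how much of the change came from this was not tested. The members' median minus that of all genes was 0.20, -0.15 and -0.33 in both scalings, which a shift of all genes alike cannot alter.

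At 2 µM against 0 µM, 2 members passed at an adjusted p under 0.05 with TMM over nuclear genes or at least 10 counts, where 1.82 and 2.39% of all genes rose. With no filter 0 members passed, where 0.809% of all genes rose. With 1 library left out 0 to 19 passed, where 0.143 to 7.63% of all genes rose. At 10 µM against 0 µM, 4 members fell with only the 2 groups compared, which uses fewer samples, where 4.16% of all genes fell. With 1 of the 0 or 2 µM libraries left out, 5 to 11 fell, where 3.74 to 11.7% of all genes fell. In each of these fits 1 member was a DEG, where 108 to 347 of all tested genes were DEGs that fell. With any 1 library left out the members' median was -0.23 to -0.12. At 10 µM against 2 µM, 7 members were DEGs with no filter and with DESeq2, where 363 and 350 of 23612 genes were DEGs that fell. With 1 of the 0 or 2 µM libraries left out 4 to 7 were DEGs, where 160 to 333 of all tested genes were DEGs that fell. With any 1 library left out the members' median was -0.43 to -0.30. The causes of these differences were not tested. The added GC correction gave 1, 10 and 28 members with an adjusted p under 0.05 in the 3 comparisons.

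Between 0 and 2 µM, libraries with the same replicate number had deviations correlated at 0.199, 0.0845 and 0.161. Those with different numbers had -0.154 to 0.0584, below each of these. Same-number pairs with a 10 µM library were at -0.145 to -0.0212. Whether the replicate numbers pair the libraries was not tested. With the replicate block, 0 members passed at 2 µM against 0 µM in place of 1, where 1.15% of all genes rose. At 10 µM against 0 µM, 9 fell in place of 8, and at 10 µM against 2 µM, 23 in place of 25. Of all genes, 5.95 and 11.5% fell in these 2 comparisons. With 2 libraries at 10 µM, a left-out library leaves 1, which is assumed to vary like the other groups. The lowest count of a member was 159 in a library, and the effect of depth was not tested.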
